A study of Mus musculus with 30 samples.

Results

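Transcripts of 10 genes of the mTOR pathway were measured in C2C12 myotubes, the multinucleated cells that form when the mouse myoblast line C2C12 differentiates. The 10 were taken by name from a table of 55487 genes: the complex subunits Mtor, Rptor, Rictor and Deptor, the tuberous sclerosis genes Tsc1 and Tsc2, the GTPases Rheb and Rragd, and the sestrins Sesn1 and Sesn3. All 10 were among the 15907 genes that passed the filter on low counts. The cells, of wild-type genotype in every group, were differentiated for 4 days and kept for 4 more days, 8 days in total, in 1 of 5 conditions with 6 replicates each. One group stayed in medium with 2% horse serum (2% HS) and one was deprived of serum (SD). The other 3 were deprived of serum and given 100 nM metformin (MET), 500 nM leucine (LEU) or both at these doses (MET+LEU). The medium was low glucose DMEM in all 5 groups. Nothing in the labels says whether replicates came from separate cultures on separate days, so p-values measure the spread between these libraries, all of 1 cell line, which may be technical.

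mTOR is a kinase that works in a pair of complexes. Complex 1, built around Raptor (Rptor), drives protein synthesis and restrains autophagy, and complex 2, built around Rictor, phosphorylates AKT. Growth factors reach complex 1 through the TSC1-TSC2 complex, which keeps the GTPase RHEB inactive, and amino acids reach it at the lysosome through the Rag GTPases. Sestrins bind and restrain the GATOR2 complex upstream of the Rags, and leucine releases that hold, most directly from SESN2. In muscle the pathway links serum and amino acid supply to fibre size. Much of this control acts on proteins and their phosphorylation, which these transcript levels do not show.

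Libraries held between 12784960 and 19604103 counts. Members were counted between 150 times (Rragd) and 9245 times (Deptor) in a library. Myotube markers were abundant in all libraries, with a summed level between 32007 and 45222 CPM (counts scaled to the same library total, after TMM scaling), while the adipocyte markers summed to at most 0.229 CPM, the neuron and Schwann cell markers to at most 0.642, the leukocyte markers to at most 4.65 and the endothelial markers to at most 3.46. MET+LEU replicate 6 stood apart, with 5.85% of its counts on nuclear ribosomal RNA genes and 7.64% on mitochondrial ribosomal RNA genes. Calls of members and pathway genes in MET+LEU vs. SD that were lost without it are given as such beside the call. In bulk RNA, fewer cells of a type and less RNA per cell cannot be told apart.

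Promoter sequences of RefSeq (build GRCm38.p6, 250 bases before to 50 after a start) matched 9 of the 10 genes, all but Deptor, with a pair of windows for Sesn1. The 130 bases before the start are shown for the 3 genes with a window that differed between SD and 2% HS, 1 that rose and 2 that fell. Capitals mark CCAAT boxes (CCAAT, or ATTGG on the other strand) and GC boxes (GGGCGG or CCGCCC). The stretches are chr9:14276171-14276300 for Sesn3, chr4:148448452-148448581 for Mtor and chr2:28641103-28641232 for Tsc1, all on the + strand and written 5′ to 3′. RefSeq starts can differ from the gene positions given below. The stretch of Sesn3 lies inside that gene's position, which begins at 14275067, and the last bases of Tsc1 lie past its beginning at 28641228.
Sesn3: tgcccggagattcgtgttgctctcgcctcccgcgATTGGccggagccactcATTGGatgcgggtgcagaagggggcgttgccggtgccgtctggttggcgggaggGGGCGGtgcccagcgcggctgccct
Mtor: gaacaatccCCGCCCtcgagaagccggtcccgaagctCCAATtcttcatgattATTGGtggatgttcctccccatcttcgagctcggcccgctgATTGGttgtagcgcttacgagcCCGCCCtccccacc
Tsc1: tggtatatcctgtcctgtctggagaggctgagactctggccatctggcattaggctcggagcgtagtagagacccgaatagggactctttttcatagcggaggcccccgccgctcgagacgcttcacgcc

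Sesn3 and Mtor shared CCAAT and GC boxes, and Tsc1 held none of the 5 motifs searched on both strands. CCAAT and GC boxes were also found in Rictor and in each window of Sesn1, and a GC box in Rheb. Rptor, Tsc2 and Rragd held none of the 5 motifs. These other genes were not called in SD vs. 2% HS. In 32851 windows of 300 bases, CCAAT was found in 37.4% and GGGCGG in 35.7%. The other searches were for TATAAA (13.6%), the E-box CACGTG (7.15%) and GTAAACA, the core bound by FoxO factors (3.65%). Among the members' windows, CACGTG was found in Rheb and GTAAACA in a window of Sesn1, and neither was found in the 3 printed genes. GTAAACA contains none of the other motifs. A match describes letters, not a site in use.

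Per kilobase of exon, Deptor was the most abundant member in SD, with a mean level of 47.0 CPM per kb, and Rragd the least, with 2.59. Mtor, Rptor and Tsc2 lay close together at 15.3, 15.1 and 14.3 CPM per kb. Sesn1, Sesn3 and Rheb formed a lower set at 8.39, 8.18 and 7.93 CPM per kb, followed by Rictor at 6.87 and Tsc1 at 5.23. Within a group the spread between replicates was small, with a coefficient of variation between 1.48% (Rheb in LEU) and 11.8% (Rragd in 2% HS).

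**Figure D1:**
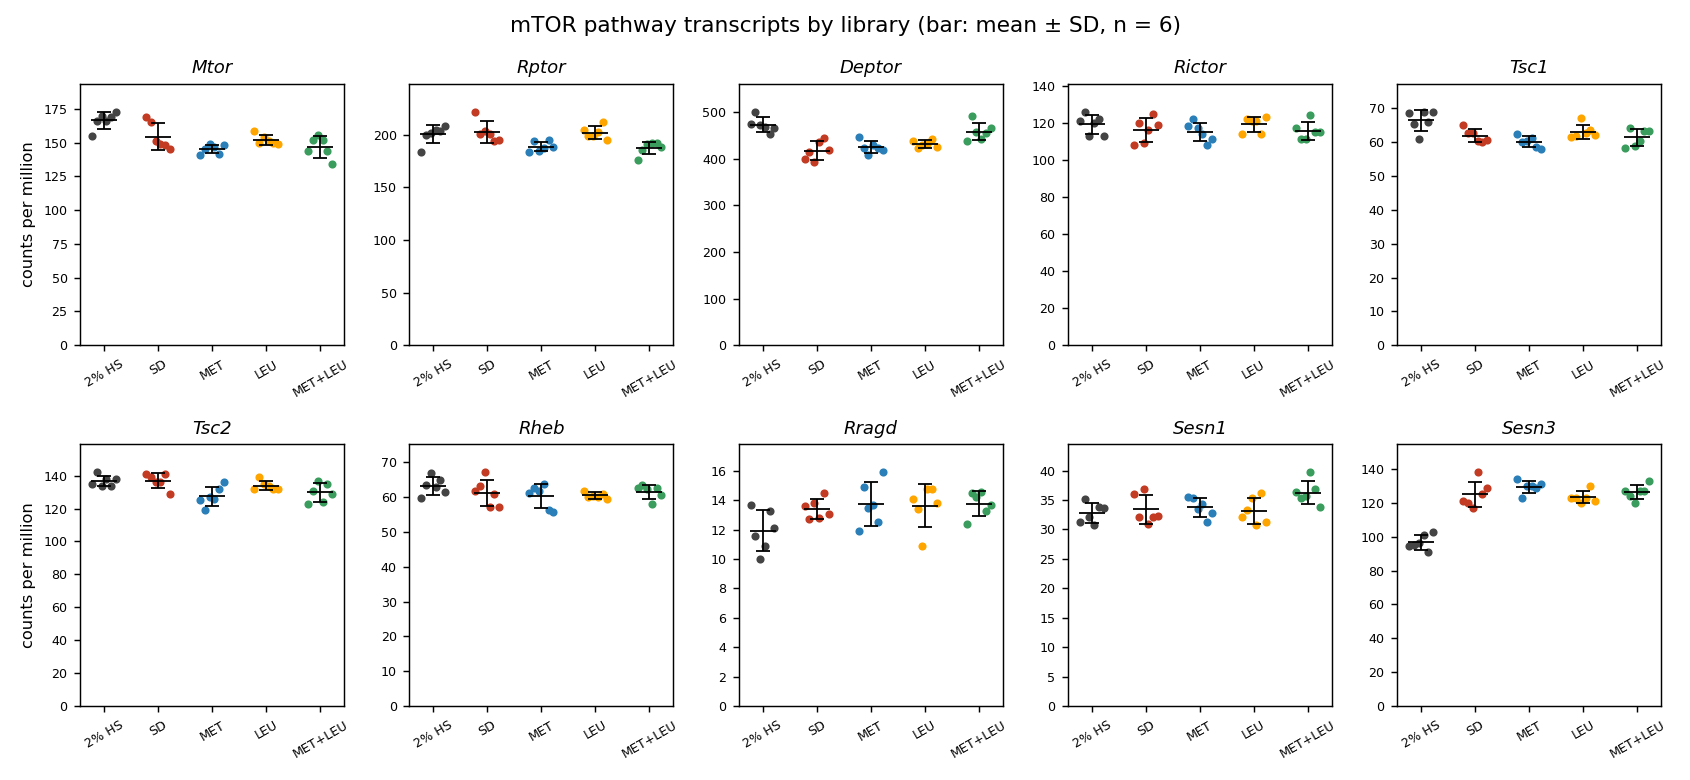
Level of each of the 10 transcripts (CPM after TMM scaling, y axes from 0) in every library of the 5 groups (x axis); bars give the mean ± SD of 6 libraries. Sesn3 stood between 91.0 and 103 CPM in 2% HS and at 117 CPM or more in all serum-deprived libraries, while the groups of Rictor and Rheb overlapped throughout.

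Across the 5 conditions, 6 of the 10 members differed between at least 2 groups by edgeR's quasi-likelihood F test over all group means (adjusted p under 0.05), beside 44.5% of all genes tested. Sesn3 differed most (F = 40.0, adjusted p = 9.2e-13), followed by Deptor (F = 10.7, adjusted p = 2.5e-05) and Mtor (F = 8.39, adjusted p = 2.1e-04). Rptor, Tsc1 and Tsc2 passed with adjusted p of 0.00421, 0.0213 and 0.0312. Sesn1, Rragd, Rheb and Rictor did not, with adjusted p of 0.108, 0.130, 0.589 and 0.601. With an offset for GC content, 4 of the 10 passed. The share of all genes that passed with the offset was not counted, so this 4 has no background beside it.

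The comparison of SD with 2% HS asked how 4 days without serum changed the transcripts. Sesn3 rose, Deptor, Mtor and Tsc1 fell, and the other 6 did not pass the test. The 4 called members stand beside 27.8% of all genes tested that were called in this comparison. The median log2 fold change of the 10 was -0.02, beside 0.003 over all genes tested. Summed myotube markers were lower in the same libraries (34996 to 37839 CPM in SD against 42543 to 45222 in 2% HS), with 2 of 13 markers up and 5 down, and of the myoblast and reserve cell markers (700 to 794 CPM in SD, 799 to 899 in 2% HS) 1 of 6 was up and 3 were down. Their part in these differences was not tested.

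Sesn3 (chr9:14275067-14333101, + strand) encodes a sestrin, a stress-induced restraint on complex 1. Its level was 91.0 CPM at the lowest, 95.5 at the median and 103 at the highest in 2% HS, and 117, 123 and 138 CPM in SD. The groups did not overlap. The log2 fold change was 0.37 (SE 0.04, adjusted p = 4.6e-11), a rise of 29.2%, and it stayed between 0.34 and 0.39 when any 1 of the 30 libraries was left out.

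Deptor (chr15:55112317-55259271, + strand) encodes a subunit of both complexes that inhibits the kinase. It ranged from 454 to 501 CPM in 2% HS, with a median of 471, and from 392 to 444 CPM in SD, with a median of 416. Again the groups did not overlap, and all SD libraries were lower. Deptor fell by 0.18 on the log2 scale (SE 0.03, adjusted p = 2.7e-05).

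Mtor (chr4:148448611-148557683, + strand), the kinase itself, ranged from 155 to 173 CPM in 2% HS (median 167) and from 145 to 169 CPM in SD (median 150). The groups overlapped, with 4 of 6 SD libraries below all 2% HS libraries. It fell by 0.11 on the log2 scale (SE 0.04, adjusted p = 0.0285). The call was lost when any 1 of 6 libraries was left out (2% HS replicates 5 and 6, SD replicates 3 to 6), with adjusted p between 0.0513 and 0.0734.

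Tsc1 (chr2:28641228-28691167, + strand) encodes hamartin, which stabilises its partner TSC2. It ranged from 61.0 to 69.0 CPM in 2% HS (median 67.2) and from 60.0 to 65.2 CPM in SD (median 61.7). The groups overlapped, with 3 of 6 SD libraries below all 2% HS libraries, and Tsc1 fell by 0.10 on the log2 scale (SE 0.04, adjusted p = 0.0464). This call was lost on leaving out any of 11 libraries (2% HS replicates 1, 4, 5 and 6, SD replicates 2 to 6, MET replicate 4 and LEU replicate 6), with adjusted p between 0.051 and 0.0975. Its partner Tsc2 (chr17:24595816-24632630, - strand), the GTPase-activating subunit, differed by 0.00 (95% interval -0.07 to 0.07).

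The other 5 members also missed the threshold. Rptor, the substrate-recruiting scaffold of complex 1 (chr11:119602905-119899576, + strand), differed by 0.02 on the log2 scale (95% interval -0.05 to 0.09). Rictor, the scaffold of complex 2 (chr15:6708379-6800401, + strand), differed by -0.04 (-0.12 to 0.04), and Rheb, the activator of complex 1 (chr5:24802823-24842624, - strand), by -0.05 (-0.13 to 0.04). Rragd (chr4:32983037-33022180, + strand), a Rag GTPase of the lysosomal arm, had the widest interval, 0.17 (0.00 to 0.34, adjusted p = 0.121), and Sesn1 (chr10:41809935-41908424, + strand), the other sestrin, differed by 0.03 (-0.08 to 0.14). The small intervals of Rptor, Rictor, Rheb and Tsc2 leave room for changes of about 0.1 on the log2 scale and not for one of the size of Sesn3.

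**Figure D2:**
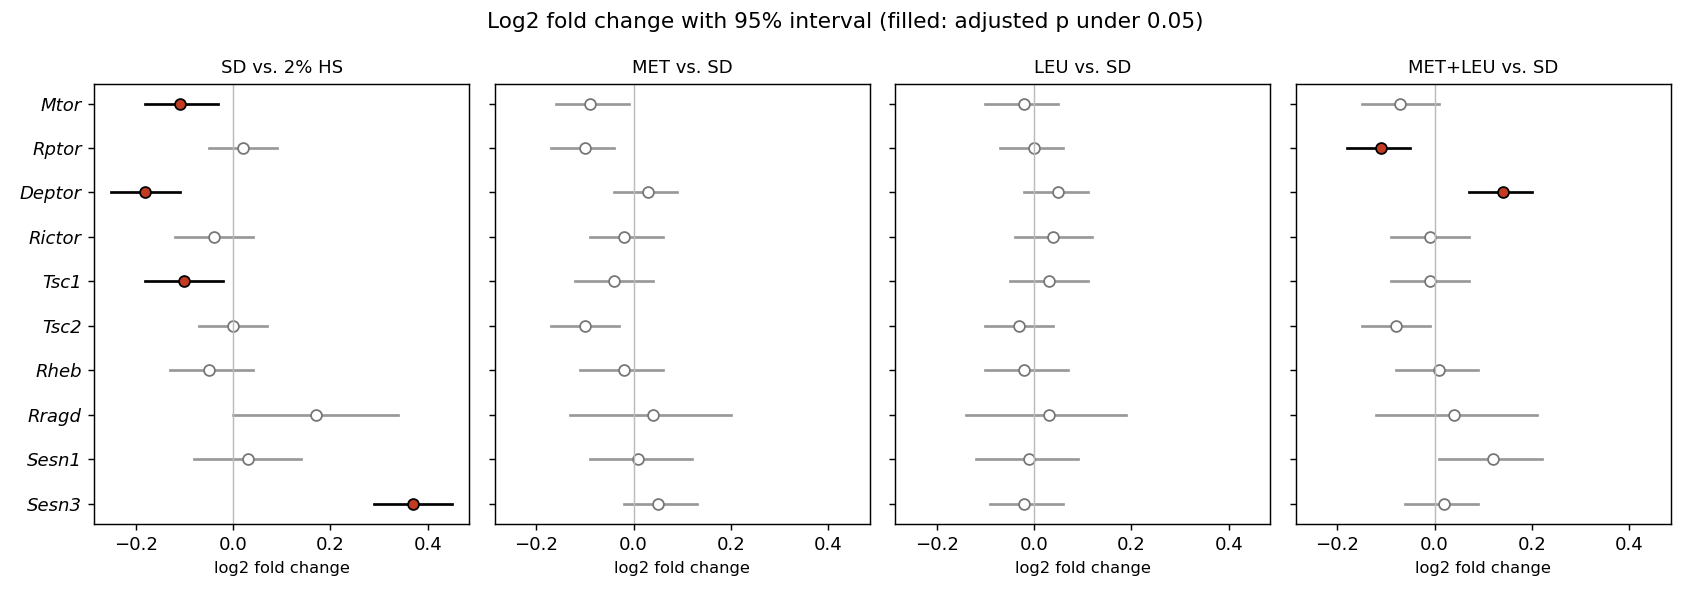
Log2 fold change (x axis) of the 10 transcripts (rows) in 4 comparisons (panels), with 95% intervals; filled points passed an adjusted p under 0.05. In SD vs. 2% HS Sesn3 (0.37) stood apart from Deptor (-0.18), Mtor (-0.11) and Tsc1 (-0.10), no member passed with MET or LEU alone, and Rptor (-0.11) and Deptor (0.14) passed in MET+LEU vs. SD.

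MET alone or LEU alone, each set against SD, asked for the effect of a single agent in serum-deprived cells. No member passed the test in either comparison by edgeR, DESeq2's Wald test or limma-voom, with all genes called at 0.157% (MET vs. SD) and 0.553% (LEU vs. SD). In MET vs. SD 3 members had an unadjusted p under 0.05: Rptor (-0.10, 95% interval -0.17 to -0.04, adjusted p = 0.225), Tsc2 (-0.10, -0.17 to -0.03, adjusted p = 0.240) and Mtor (-0.09, -0.16 to -0.01, adjusted p = 0.408). In LEU vs. SD none of the 10 had an unadjusted p under 0.05, and the log2 fold changes lay between -0.03 (Tsc2) and 0.05 (Deptor). The widest interval in this comparison was that of Rragd, from -0.14 to 0.19. Sesn3 stood at 123 to 134 CPM (median 130) in MET and at 120 to 130 CPM (median 123) in LEU, all above the highest 2% HS library.

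The comparison of MET and LEU with each other called none of the 10 by edgeR, beside 0.0754% of all genes, with 1 member at an unadjusted p under 0.05. That member was Rptor, whose 6 LEU libraries (195 to 212 CPM, median 201) lay at or above the highest MET library (184 to 195 CPM, median 187). The log2 fold change was 0.10 (SE 0.03, adjusted p = 0.341), and in a fit of these 2 groups alone edgeR's adjusted p was 0.0492.

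MET+LEU against SD asked for the effect of the combination. Rptor fell and Deptor rose, and the other 8 members did not pass in this fit. The 2 called members stand beside 18.4% of all genes tested. The median log2 fold change of the 10 was -0.00, beside -0.005 over all genes.

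Rptor ranged from 194 to 222 CPM in SD (median 201) and from 176 to 192 CPM in MET+LEU (median 189). The groups did not overlap. Rptor fell by 0.11 on the log2 scale (SE 0.03, adjusted p = 0.0140). With the GC offset the difference was -0.03 (SE 0.03, adjusted p = 0.528), and the call was lost. Without MET+LEU replicate 6 and with the offset it was -0.06 (adjusted p = 0.180).

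The GC content of transcripts moved with this comparison over all genes. Genes in the lowest quintile of GC content had a median log2 fold change of 0.068 in MET+LEU vs. SD, and those in the highest quintile -0.100 (Spearman's rho -0.304 over 15881 genes, which are not independent). Rptor had the highest GC content of the members, 56.5%, and Rictor the lowest, 42.5%. In SD vs. 2% HS the trend had the other sign (rho 0.146), and the same 4 members were called with the offset as without it.

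Deptor ranged from 437 to 491 CPM in MET+LEU (median 457), against 392 to 444 CPM in SD. The groups overlapped, with 4 of 6 MET+LEU libraries above all SD libraries. Deptor rose by 0.14 on the log2 scale (SE 0.03, adjusted p = 0.00293), and by 0.09 (SE 0.03, adjusted p = 0.0426) with the GC offset. Against 2% HS, MET+LEU differed by -0.05 (95% interval -0.11 to 0.02, adjusted p = 0.283), or by -0.08 with the offset (adjusted p = 0.0229). The SD libraries enter both the fall in SD vs. 2% HS and the rise in MET+LEU vs. SD. Summed myotube markers were 35365 to 44332 CPM in MET+LEU, with 6 of 13 markers up vs. SD and none down, and cycling cell markers were 128 to 159 CPM against 174 to 244 in SD, with 7 of 7 down. Their part in the differences of Deptor and Rptor was not tested.

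Sesn1 had the next largest difference in MET+LEU vs. SD, 0.12 (95% interval 0.01 to 0.22, adjusted p = 0.115), with 33.8 to 39.7 CPM (median 36.0) against 30.9 to 36.8 CPM (median 32.3). It passed by limma-voom (0.16, adjusted p = 0.0479). Tsc2 differed by -0.08 (-0.15 to -0.01, adjusted p = 0.0996), and passed with upper-quartile scaling (-0.10, adjusted p = 0.0483), by DESeq2's Wald test (-0.09, adjusted p = 0.0452) and without SD replicate 6 (-0.10, adjusted p = 0.0330). With the GC offset Tsc2 differed by -0.02 (adjusted p = 0.690) and Sesn1 by 0.11 (adjusted p = 0.133). Mtor differed by -0.07 (-0.15 to 0.01, adjusted p = 0.195). Sesn3 stood at 120 to 133 CPM (median 127), with a difference from SD of 0.02 (-0.06 to 0.09). Rictor, Tsc1, Rheb and Rragd differed from SD by -0.01, -0.01, 0.01 and 0.04.

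**Figure D3:**
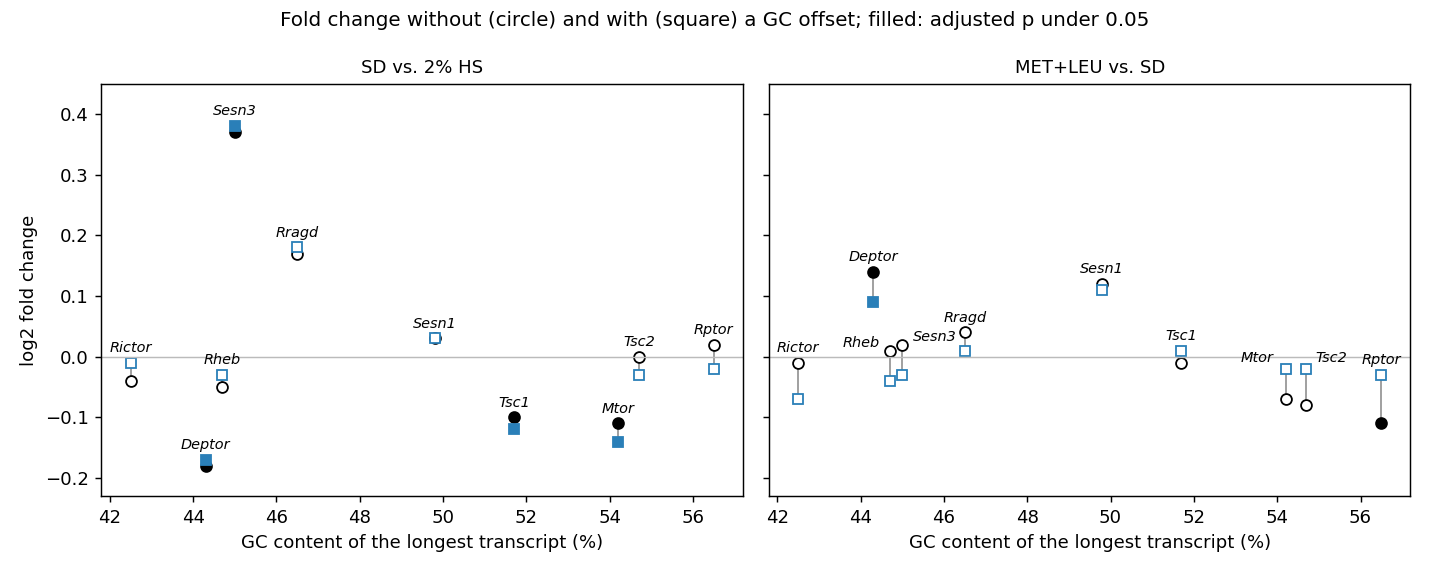
Log2 fold change (y axis) against the GC content of each member's longest transcript (x axis, %) in SD vs. 2% HS and MET+LEU vs. SD, without (circles) and with (squares) a GC offset; filled symbols passed an adjusted p under 0.05. In MET+LEU vs. SD Rptor moved from -0.11 to -0.03 and Deptor from 0.14 to 0.09, while Sesn3 in SD vs. 2% HS stayed at 0.37 and 0.38.

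Set against each single agent, the combination differed in 1 member each. Compared with LEU, Rptor was lower in MET+LEU without overlap, with a log2 fold change of -0.11 (SE 0.03, adjusted p = 0.0431), beside 6.28% of all genes called. In MET+LEU vs. MET Deptor was higher, with a log2 fold change of 0.11 (SE 0.03, adjusted p = 0.0307), beside 8.69% of all genes. Neither was called with the GC offset (adjusted p = 0.475 and 0.108). The Rptor call was lost on leaving out any of 5 libraries (MET replicate 4, LEU replicates 1, 4 and 5, MET+LEU replicate 1), with adjusted p between 0.05 and 0.0847, and the Deptor call on leaving out any of 19, with adjusted p between 0.0503 and 0.127. Those 19 were 2% HS replicates 1, 3, 4 and 6, SD replicates 2, 4 and 6, MET replicates 2, 3, 5 and 6, LEU replicates 1 to 5 and MET+LEU replicates 2, 5 and 6.

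The interaction of MET and LEU asked whether both agents together gave more or less than their single effects added up on the log2 scale. None of the 10 passed by edgeR, DESeq2 or limma-voom, none had an unadjusted p under 0.05 by edgeR, and 0.0503% of all genes were called. For Deptor the interaction was 0.06 and for Rptor -0.01 on the log2 scale.

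Against 2% HS, the 3 treated groups were compared with the condition that kept its serum. MET+LEU differed in 6 members, beside 42.3% of all genes, MET in 7 members (35.0% of all genes) and LEU in 3 members (29.7%). All 3 comparisons share the 2% HS libraries. Sesn3 was higher in each, by 0.39, 0.42 and 0.35 in MET+LEU, MET and LEU, without overlap. Mtor was lower in each, with log2 fold changes of -0.18, -0.20 and -0.13.

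Other calls were made in some of these groups. Deptor was lower in MET (-0.15) and LEU (-0.13), both without overlap, and Tsc1 in MET (-0.15, adjusted p = 0.00298) and MET+LEU (-0.11, adjusted p = 0.0162). Rptor was lower in MET (-0.09, adjusted p = 0.0423) and MET+LEU (-0.10, adjusted p = 0.0185), and Tsc2 in MET (-0.10, adjusted p = 0.0191). Rragd was higher in MET (0.21, adjusted p = 0.0439) and MET+LEU (0.21, adjusted p = 0.0336), and Sesn1 in MET+LEU (0.15, adjusted p = 0.0196).

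In MET vs. 2% HS 3 of the 7 calls sat near the threshold. Rptor lost its call on leaving out any of 9 libraries (2% HS replicates 2 to 6, MET replicates 1, 3, 4 and 6), with adjusted p between 0.0548 and 0.0945. Rragd lost it on leaving out any of 8 (2% HS replicates 2, 3, 4 and 6, MET replicates 2, 3, 4 and 6), with adjusted p between 0.0524 and 0.141, and Tsc2 on leaving out MET replicate 2 (adjusted p = 0.0783). In LEU vs. 2% HS Rragd was not called (0.20, adjusted p = 0.0665), and it passed on leaving out any of 3 libraries (2% HS replicates 1 and 5, LEU replicate 3), with adjusted p between 0.0161 and 0.0421.

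Several calls of MET+LEU vs. 2% HS sat near the threshold. Rragd lost its call on leaving out any of 7 libraries (2% HS replicates 2, 3, 4 and 6, MET+LEU replicates 2, 3 and 4), with adjusted p between 0.0551 and 0.139. Sesn1 lost it on leaving out any of 4 (2% HS replicates 1, 3 and 4, MET+LEU replicate 4), with adjusted p between 0.0526 and 0.103. Tsc2, not called with all libraries (-0.08, adjusted p = 0.0644), passed on leaving out any of 22, with adjusted p between 0.0239 and 0.0488. With the GC offset Rptor (-0.05, adjusted p = 0.175), Rragd (0.19, adjusted p = 0.0540) and Tsc2 (-0.05, adjusted p = 0.210) were not called. Deptor (-0.08) and Rictor (-0.08, adjusted p = 0.0474) were called with the offset.

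Ordered by mean level, few neighbouring conditions differed. For Sesn3 the order from the lowest was 2% HS (96.6 ± 4.30 CPM, SD, n = 6), LEU (123 ± 3.68), SD (125 ± 7.54), MET+LEU (126 ± 4.21) and MET (129 ± 3.86), and the first step alone passed (adjusted p = 1.7e-10). For Deptor the order was SD (417 ± 19.9 CPM), MET (425 ± 12.6), LEU (431 ± 7.80), MET+LEU (458 ± 19.1) and 2% HS (473 ± 15.4), and no neighbours differed beyond the threshold. For Mtor the step from SD (155 ± 10.1 CPM) to 2% HS (167 ± 6.20) passed, and the steps between MET (145 ± 3.20), MET+LEU (147 ± 7.82), LEU (152 ± 4.05) and SD did not.

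For Rptor the order was MET+LEU (187 ± 5.92 CPM), MET (189 ± 4.64), 2% HS (200 ± 8.45), LEU (202 ± 5.92) and SD (203 ± 10.3). The step from MET to 2% HS alone passed (adjusted p = 0.0423), a call lost on leaving out any of 9 libraries, as given above. MET did not pass against LEU (adjusted p = 0.341) or SD (adjusted p = 0.225). Tsc1 was lowest in MET (60.1 ± 1.62 CPM) and highest in 2% HS (66.5 ± 3.10), and Tsc2 lowest in MET (128 ± 5.89) and highest in SD (137 ± 4.56). No neighbouring steps passed for these genes, nor for Rictor, Rheb, Rragd and Sesn1. Rictor lay between means of 115 and 119 CPM, Rheb between 60.2 and 63.2, Rragd between 11.9 (2% HS) and 13.8 (MET+LEU), and Sesn1 between 32.8 (2% HS) and 36.3 (MET+LEU).

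Ratios of counts within a library, which do not depend on how libraries are scaled, were compared for 4 pairs in 4 comparisons by a two-sided exact permutation test, 16 tests in all. None passed after adjustment over the 16, and the smallest p that 6 against 6 libraries allow is 0.00216. Sesn1 to Sesn3 was 0.306 to 0.371 (median 0.332) in 2% HS and 0.224 to 0.316 (median 0.262) in SD, a difference of -0.34 on the log2 scale (exact permutation p = 0.00433, adjusted 0.0693). Tsc1 to Tsc2 was 0.456 to 0.507 (median 0.495) in 2% HS and 0.426 to 0.470 (median 0.455) in SD, a difference of -0.10 (exact permutation p = 0.0238, adjusted 0.190). The groups overlapped for both ratios.

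Rictor to Rptor, the balance of the scaffolds of both complexes, had a median of 0.591 in 2% HS and 0.589 in SD, and Rragd to Rragc, a GTPase and its paralog, had medians of 0.149 and 0.174. The log2 differences were -0.05 (exact permutation p = 0.489) and 0.18 (exact permutation p = 0.108). Against SD, none of the 12 differences with MET, LEU or MET+LEU had an adjusted p under 0.346.

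Over the 30 libraries, the members' levels were also set against each other and against all other genes, as a description, since libraries share their condition. Mtor and Rptor had the highest Pearson correlation of log2 CPM among members (r = 0.626, and 0.555 within groups), and Mtor and Sesn3 the lowest (r = -0.749, and -0.333 within groups). The genes most like Sesn3 were Pdgfra (r = 0.954) and Angptl4 (r = 0.951), which fell to 0.534 and 0.455 within groups. Mtor was most like Rapgef1 (r = 0.898) and Ctsb (r = 0.894), and Deptor most like Sh3glb1 (r = 0.884) and Selenop (r = 0.878).

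The other members had looser likenesses. Rragd was closest to Meox1 (0.791) and Tex2 (0.754), Tsc1 to Hephl1 (0.773) and Lime1 (0.771), and Rptor to Eme2 (0.762) and Cdk18 (0.752). Tsc2 was closest to 0610038B21Rik (0.754) and Ergic1 (0.744), Sesn1 to Mdp1 (0.710) and AA465934 (0.655), Rheb to Cnnm4 (0.688) and Rnf14 (0.668), and Rictor to Ptbp2 (0.678) and Gm40309 (0.662).

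Around the 10 members, 11 lists of pathway genes, 100 tested genes in all, were counted in the same tests. In SD vs. 2% HS 6 of the 100 rose and 22 fell, beside 13.9% up and 13.9% down over all genes. Between MET+LEU and SD 7 rose and 20 fell, beside 10.6% up and 7.80% down. The latter counts were 5 and 16 without MET+LEU replicate 6, 9 and 12 with the GC offset, and 6 and 8 with both. These shares of all genes are the background of the counts for each list.

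Of the leucine transporters, 4 of 6 tested genes fell in SD vs. 2% HS and 4 of 6 in MET+LEU vs. SD, with median log2 fold changes of -0.14 and -0.15 (0.003 and -0.005 over all genes). Slc7a5, the light chain of the LAT1 leucine transporter, had medians of 195 CPM in 2% HS, 136 in SD and 114 in MET+LEU. It fell by 0.50 on the log2 scale in SD vs. 2% HS (adjusted p = 2.3e-14) and by 0.31 in MET+LEU vs. SD (adjusted p = 6.1e-07). Its heavy chain Slc3a2 fell by 0.23 (adjusted p = 5.4e-06) and by 0.17 (adjusted p = 0.00135).

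The glutamine carriers Slc1a5 and Slc38a2 completed the 4 in MET+LEU vs. SD. Slc1a5 fell by 0.40 (adjusted p = 0.00731) from a low level of 5.74 CPM in SD. With the GC offset the same genes were called in both comparisons, and with the offset and without MET+LEU replicate 6 Slc1a5 was not (-0.31, adjusted p = 0.0792). Slc7a5 was also called with MET alone (log2 fold change -0.18, adjusted p = 0.0407, not called with the offset) and with LEU alone (-0.16, adjusted p = 0.0441). The call with MET was lost on leaving out any of 18 libraries (adjusted p up to 0.215), all but 2% HS replicates 1, 2 and 5, SD replicates 3, 4 and 6, MET replicate 1, LEU replicate 6 and MET+LEU replicates 2, 3, 5 and 6. The call with LEU was lost on leaving out any of 21 (adjusted p up to 0.173), all but 2% HS replicate 5, SD replicates 3, 4 and 6, MET replicate 1 and MET+LEU replicates 2, 3, 5 and 6. Myotube markers in SD vs. 2% HS, and myotube and cycling cell markers in MET+LEU vs. SD, moved as given above. In LEU vs. SD 4 of 7 cycling cell markers fell and 1 of 13 myotube markers rose, beside 0.553% of all genes called. None of these markers was called in MET vs. SD. Their part was not tested.

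**Figure D4:**
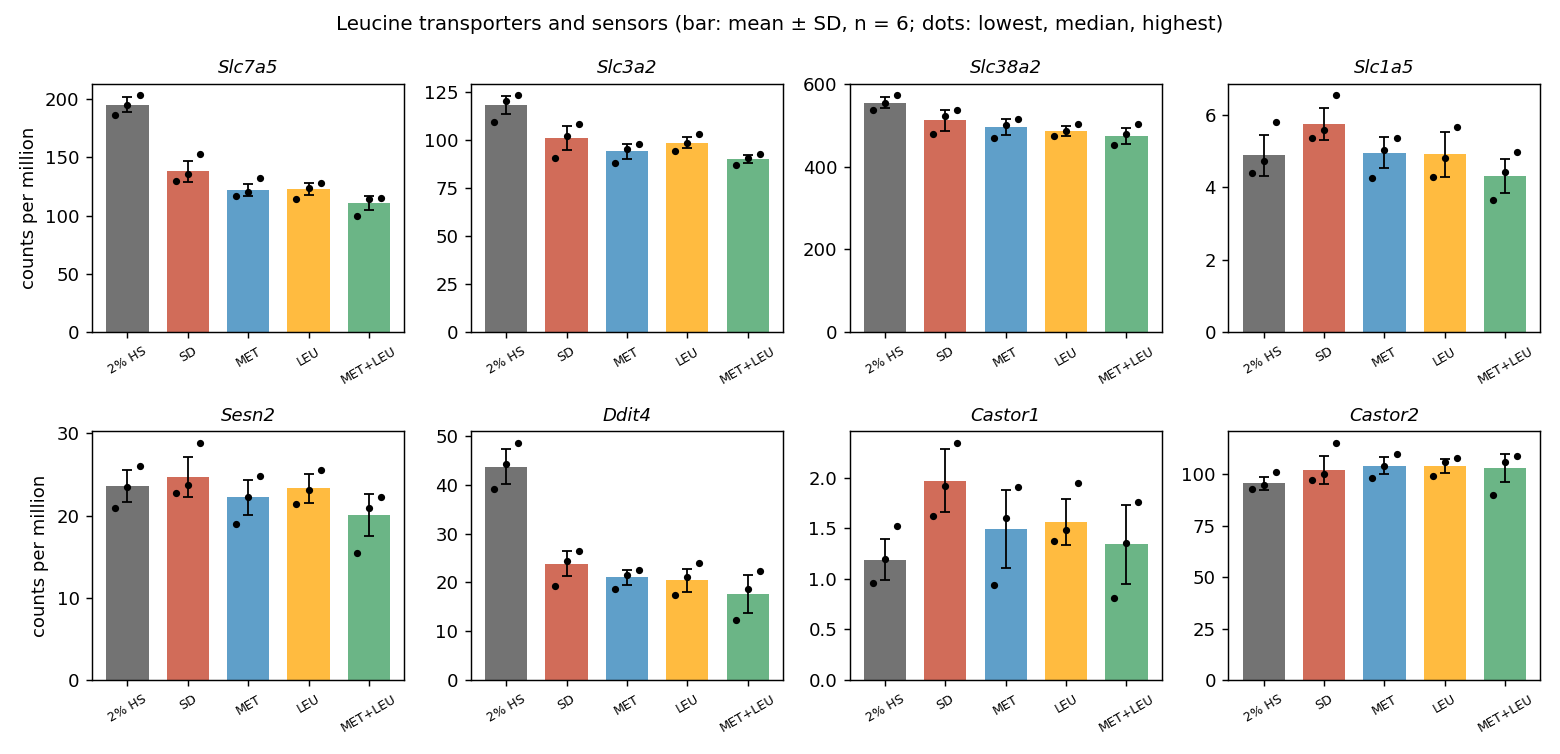
Mean level ± SD (CPM, bars, n = 6, y axes from 0) in the 5 groups (x axis), with dots at the lowest, median and highest library. The genes are leucine transporters, the glutamine carriers Slc38a2 and Slc1a5, amino acid sensors and Ddit4. Slc7a5 stood at means of 195 CPM in 2% HS, 138 in SD and 111 in MET+LEU, and Ddit4 at 43.7, 23.8 and 17.6.

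Among other leucine or amino acid sensors, 1 of 7 rose and 1 fell in SD vs. 2% HS and 2 of 7 fell in MET+LEU vs. SD. Castor1, an arginine sensor, rose by 0.73 (adjusted p = 0.00468) in the former and fell by 0.54 (adjusted p = 0.0497) in the latter, at a low mean level of 1.19 to 1.97 CPM, and Lars, the leucyl-tRNA synthetase, fell by 0.16 in SD. Sesn2, the sestrin that binds leucine most directly, had a log2 fold change of 0.06 in SD vs. 2% HS (adjusted p = 0.560), and it fell by 0.29 in the combination vs. SD (adjusted p = 0.00505). With the GC offset neither Sesn2 nor Castor1 was called in MET+LEU vs. SD. The call of Castor1 there was also lost without MET+LEU replicate 6 (-0.45, adjusted p = 0.147), and on leaving out any of 12 others (2% HS replicates 1, 5 and 6, SD replicates 1 to 3, MET replicates 3 and 4, LEU replicate 6, MET+LEU replicates 1, 3 and 4). Castor2, the paralog of Castor1, differed by 0.10 (adjusted p = 0.0793) and 0.02.

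The other Rag, Ragulator and folliculin genes held 1 called up and 2 called down of 10 in SD vs. 2% HS. Flcn and Fnip1, the folliculin complex that acts on RagC and RagD, fell by 0.46 (adjusted p = 1.9e-08) and 0.25 (adjusted p = 0.00116). Between MET+LEU and SD Fnip1 rose by 0.18 (adjusted p = 0.0269) and Flcn fell by 0.17 (adjusted p = 0.0434), and neither was called with the GC offset. Both calls were also lost without MET+LEU replicate 6 (Fnip1 0.15, adjusted p = 0.126, Flcn -0.16, adjusted p = 0.0717), so that no gene of the list was called. Fnip1 lost its call without SD replicate 1 or 3 or MET+LEU replicate 4 or 5 too, and Flcn without SD replicate 1, 2 or 3 or MET+LEU replicate 1 or 5. Rraga and Rragc differed by 0.03 and -0.00 in SD vs. 2% HS and by -0.00 and 0.02 in MET+LEU vs. SD.

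In the TSC and Rheb arm, 4 of 8 other genes fell in SD vs. 2% HS and 1 of 8 in MET+LEU vs. SD. The stress-induced inhibitors of complex 1 Ddit4 and Ddit4l fell by 0.87 (adjusted p = 7.8e-09) and 0.77 (adjusted p = 3.8e-07) in SD, and Ddit4 by a further 0.42 (adjusted p = 0.00403) in MET+LEU. None of 6 GATOR1 and KICSTOR genes was called by edgeR in SD vs. 2% HS, with 1 at an unadjusted p under 0.05 (Nprl3 was among those called with the GC offset), and 3 of 6 fell in MET+LEU vs. SD, Nprl3 by 0.29 and Itfg2 by 0.21, of which Nprl3 alone was called with the offset. Itfg2 was not called without MET+LEU replicate 6 (-0.19, adjusted p = 0.0587) or without SD replicate 1 (adjusted p = 0.0860). Of the 5 GATOR2 genes, Sec13 rose by 0.19 in SD and Seh1l and Wdr59 each fell by 0.14 (Seh1l not called without SD replicate 1, nor Wdr59 without 2% HS replicate 5 or any of SD replicates 2 to 5), and none was called by edgeR in MET+LEU vs. SD with or without the offset, with 1 at an unadjusted p under 0.05. The list of other complex subunits also held assembly factors and FKBP genes. None of its 9 tested genes was called by edgeR in SD vs. 2% HS, again with or without the offset, and 0 had an unadjusted p under 0.05. In MET+LEU vs. SD 2 of them fell, the subunit gene Mlst8 by 0.28 (adjusted p = 0.00451) and Fkbp1a, not a subunit gene, by 0.16 (adjusted p = 0.00236).

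Downstream, 4 of 18 substrates and effectors of complex 1 fell in SD vs. 2% HS and none rose. Over all genes 27.8% were called, 13.9% down and 13.9% up. Eif4ebp1, the translation repressor 4E-BP1, fell by 0.43 (adjusted p = 1.7e-08), and Ulk1, the autophagy kinase, by 0.35 (adjusted p = 2.2e-08). With the combination 4 of 18 rose and 4 fell vs. SD, and 3 rose and 3 fell without MET+LEU replicate 6, 3 and 2 with the GC offset, and 3 and 0 with both. Pdcd4, an inhibitor of eIF4A, rose by 0.44 (adjusted p = 1.7e-07) and was also called with MET alone (0.30) and LEU alone (0.25, adjusted p = 0.0538 without LEU replicate 4). Polr3g rose by 0.31 (adjusted p = 0.0292), and was not called with the GC offset, without MET+LEU replicate 6 (0.25, adjusted p = 0.103), without SD replicate 1, 2 or 3 or without MET+LEU replicate 2.

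The AMPK list of 8 genes held the subunits and Stk11, the upstream kinase LKB1. In SD vs. 2% HS 2 of the 8 rose and 2 fell, led by the muscle subunit Prkag3, which fell by 0.68 (adjusted p = 6.1e-17), and Prkag2, which rose by 0.34. With MET+LEU, the subunit Prkag1 fell vs. SD by 0.16 and Stk11 rose by 0.13 (adjusted p = 0.0107). Prkag1 was not called with the GC offset (-0.13, adjusted p = 0.0535), and Stk11 was. Among FoxO factors and atrophy genes 1 of 10 rose and 2 fell in SD vs. 2% HS. Klf15 fell by 2.03 (adjusted p = 5.3e-07) from 2.48 CPM, and the ubiquitin ligase Trim63 (MuRF1) rose by 0.15 (adjusted p = 0.0214), a call lost without 2% HS replicate 2 or 6 or SD replicate 3 or 6 (adjusted p up to 0.0700). The other gene that fell was also a ubiquitin ligase, Fbxo32. Its call was lost without 2% HS replicate 1 or 2 or SD replicate 1 or 6 (adjusted p up to 0.0654). Foxo3 alone fell in MET+LEU vs. SD, by 0.11 (adjusted p = 0.0268), and was not called without SD replicate 5 (adjusted p = 0.0606). With the GC offset it was not called and Pik3ip1 and Trim63 were called up, and with MET+LEU replicate 6 also left out Pik3ip1 alone.

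Of the 13 genes of leucine breakdown, Ivd fell by 0.25 (adjusted p = 0.00176) in SD vs. 2% HS. The combination differed from SD in 2 of them: Dld, a subunit shared by several dehydrogenase complexes, rose by 0.32 (adjusted p = 6.1e-07) and the transaminase Bcat1 fell by 0.25 (adjusted p = 0.0175, and 0.0719 without SD replicate 5).

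In the annotation, exons of 3 members overlapped a gene on the opposite strand: Tsc2 with Pkd1 over 693 bases, Deptor with Gm9920 over 303 bases and Rptor with Rptoros over 84 bases. The strand setting of the counting is not given in the sources used here, so reads from these stretches may be assigned to either gene.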

How the data were processed

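Libraries of ribosomal RNA-depleted total RNA, made with a stranded kit, were sequenced as paired reads by the authors, who deposited raw counts per gene, whole numbers without normalization. The submitters' processing notes name cutadapt 1.16, STAR 2.7.6a, featureCounts 1.6.3, DESeq2 1.30.1 and build GRCm38. The annotation release and strand setting are not given in the sources used here, nor is how reads shared between genes were counted. Symbols, positions, lengths and GC content came from GENCODE M21, which matched 55227 of the identifiers (260 did not match).

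Counts were analysed in R 4.3.3 with edgeR 4.0.16. Genes were kept by filterByExpr on the 5 groups (at least 10 counts and a total of 15), libraries were scaled by TMM, and 1 mean per group was fitted to all 30 libraries (glmQLFit, robust). Contrasts were tested by its quasi-likelihood F test, adjusted after Benjamini and Hochberg across the 15907 genes kept, and called under 0.05. Standard errors are the absolute log2 fold change divided by the square root of F, and 95% intervals use the total degrees of freedom. Ratios of counts were tested by exact permutation. Alternatives were DESeq2 size factors, upper-quartile scaling, DESeq2 1.42.0 (Wald test), limma 3.58.1 (voom with quality weights), other filters, a fit of only 2 groups, a block for the replicate number, no robust option, a threshold of 0.01, ribosomal RNA genes removed, a GC offset (loess, span 0.3) and leaving out each library. The GC offset was first fitted with each library's scale included, and was centred after its results had been seen, so that TMM alone sets the scale. The GC offset without MET+LEU replicate 6, the offset in the F test over all groups, all alternatives for MET vs. 2% HS, LEU vs. 2% HS and LEU vs. MET, and leaving out single libraries for called pathway genes were added after seeing the data. The tests were tested on simulated data.

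The members and gene lists were chosen with earlier results of these data known, and the motifs with the sequences known. All members were named. From each pathway list the 2 called genes with the largest change were named for SD vs. 2% HS and likewise for MET+LEU vs. SD, with Sesn2, Rragc, Rraga, Castor1 and Castor2 in any case, and for each member the 2 genes with the highest correlation over the libraries (log2 CPM, prior count 2). Slc38a2, Fbxo32, Pik3ip1, Seh1l, Wdr59 and the values of Slc7a5, Pdcd4 and the cell markers with single agents were chosen after their values were seen. 2610528J11Rik could not be matched to Kics2 and was left out. The 95% intervals are of log2 fold changes and include the spread between libraries, and no interval of a single count is given. The floor of 3 counts, which a count of 0 stands for, was reached by no member.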

Additional observations from a re-analysis of the deposited data

Results flagged for a closer look

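In each of the 50 sets of 6 libraries (10 members in 5 groups) the gap of the highest or lowest library to its nearest neighbour was set against the whole range. In 5 sets it was above Dixon's critical value for 6 samples, where chance gives about 1 in 20 sets. Rptor accounted for 3 of them: replicate 1 was the lowest in 2% HS at 184 CPM (the others 200 to 208), the highest in SD at 222 CPM (the others 194 to 204) and the lowest in MET+LEU at 176 CPM (the others 186 to 192). Without SD replicate 1, the fall of Rptor in MET+LEU vs. SD kept an adjusted p of 0.0440. The other 2 were Rragd in LEU, where replicate 3 stood at 10.9 CPM and the others at 13.4 to 14.8, and Sesn3 in LEU, where replicate 5 stood at 130 CPM and the others at 120 to 123.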

How the results depend on the processing

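Under 13 alternative settings besides leaving out single libraries, no call of a member turned its direction in the 10 pairwise comparisons and the interaction. In MET vs. 2% HS, LEU vs. 2% HS and LEU vs. MET these settings were added after seeing the data. The counts of members below are given without the share of all genes called under the same setting. They do not show whether members lost or gained calls more often than genes in general. In SD vs. 2% HS 4 members were called, and 2 when genes with more than 5 counts in total were kept, with only the groups compared, or at a threshold of 0.01. Leaving out 1 library gave 2 to 4. In MET+LEU vs. SD 2 were called, and 1 with only the groups compared, at 0.01, with the GC offset, and with the offset and MET+LEU replicate 6 left out. The count was 3 with upper-quartile scaling and by DESeq2's Wald test, which added Tsc2, and by limma-voom, which added Sesn1. Leaving out 1 library gave 2 to 3, and 2 without MET+LEU replicate 6. In MET+LEU vs. 2% HS the count fell from 6 to 2 at 0.01, and leaving out 1 library gave 4 to 7. In MET+LEU vs. LEU the 1 call became 0 with more than 5 counts in total, only the groups compared, a threshold of 0.01, and the GC offset with or without MET+LEU replicate 6 (0 to 1 without single libraries). In MET+LEU vs. MET it became 0 under the same settings, with upper-quartile scaling and with ribosomal RNA genes removed (0 to 1 without single libraries, 0 without MET+LEU replicate 6). In MET vs. 2% HS the count fell from 7 to 4 when genes with more than 5 counts in total were kept and at 0.01, and leaving out 1 library gave 5 to 7. In LEU vs. 2% HS it was 3, and 3 to 4 under the alternatives, and in LEU vs. MET the 0 calls became 1, Rptor, with only the groups compared (0 without single libraries). The cause was not tested. MET vs. SD, LEU vs. SD and the interaction stayed at 0 calls under all of these. Of the 16 ratios, 0 passed, and leaving out 1 library gave 0 to 2: Sesn1 to Sesn3 in SD vs. 2% HS without SD replicate 3 or MET+LEU replicate 3, and Tsc1 to Tsc2 in MET+LEU vs. SD without the latter. Libraries with the same replicate number were hardly more alike than others in their deviations from the group means (mean correlation 0.0157 for the same number and -0.00314 for different numbers). A mean over all genes cannot tell whether libraries of a number shared a culture or batch. The fit with the replicate number as a block called 3 members in SD vs. 2% HS, without Tsc1 (adjusted p = 0.0579), and 2 when the combination was set against SD. Depth limits Rragd most, with 150 to 257 counts in a library.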
